A study of Mus musculus with 6 samples.

Results

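The Ly6 genes Ly6c1, Ly6c2, Ly6a, Ly6e, Ly6i and Ly6g were followed together with the Ly-6C and Gr-1 antibody tags in CD11b+ cells of the mouse brain. The genes were taken by symbol from the feature lists, and the 6 are among 30406 genes listed in every pool. The 2 tags are among 10 protein tags that the pools share. The study measured RNA and surface proteins of the same single cells by CITE-seq, in which an antibody carries a DNA barcode that is counted beside the transcripts of the cell. The mice were C57BL/6, 12 weeks old, and each of 3 pools combined 6 samples marked with hashtag antibodies. These were a female and a male control, a female and a male at day 14 after implantation of a glioma, and a female and a male at day 21. All animals were perfused with cold saline, and the cells came from the hemisphere with the tumor or, in controls, from the whole brain. No source used here says which hashtag number marks which of these groups, which glioma cells were implanted or how many animals gave a sample. Values are therefore given by pool and hashtag number, no hashtags were pooled or tested against each other, and hashtag 1 of one pool need not be the same kind of sample as hashtag 1 of another. The p-values measure the spread between hashed samples, or between pools in neutrophil-like cells, and this spread may be technical.

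Ly6 proteins are small proteins held at the cell surface by a lipid anchor, and in mice several of their genes lie side by side. In blood and inflamed tissue Ly-6C separates classical monocytes, where it is high, from patrolling monocytes, where it is low, and Ly-6G marks neutrophils. The Gr-1 antibody recognises Ly-6G and also binds Ly-6C. In brain tumors, both tags are used to separate invading myeloid cells from resident microglia.

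The 6 genes lie within 204.104 kb of chromosome 15 (GRCm38.p6), from Ly6e at chr15:74955025-74959904 through Ly6i at chr15:74979534-74983434, Ly6a at chr15:74994877-74998031, Ly6c1 at chr15:75044018-75048920 and Ly6c2 at chr15:75108161-75112066 to Ly6g at chr15:75155261-75159128. RefSeq promoter windows (GRCm38.p6) were at hand for 3 of them, the genes whose proteins the tags were made to detect. They are shown because these 3 genes differed widely in which cells carried their RNA, while the parts of their promoters that aligned were closely alike in letters. The windows are Ly6c1 at chr15:75048614-75048913 on the minus strand, Ly6c2 at chr15:75111888-75112187 on the minus strand and Ly6g at chr15:75155079-75155378 on the plus strand, each read 5′ to 3′ along the gene. Of the 2 windows listed per gene, that of the start farthest downstream was taken. Capitals mark GAGGAAGT, the letters of the core bound by PU.1, a transcription factor of myeloid cells, searched on both strands.
Ly6c1: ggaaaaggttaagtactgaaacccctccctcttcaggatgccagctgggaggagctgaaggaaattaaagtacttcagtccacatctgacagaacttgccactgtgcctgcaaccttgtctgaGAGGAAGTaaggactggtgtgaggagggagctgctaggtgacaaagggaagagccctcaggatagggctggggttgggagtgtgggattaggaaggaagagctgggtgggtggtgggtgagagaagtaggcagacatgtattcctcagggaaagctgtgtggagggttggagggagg
Ly6c2: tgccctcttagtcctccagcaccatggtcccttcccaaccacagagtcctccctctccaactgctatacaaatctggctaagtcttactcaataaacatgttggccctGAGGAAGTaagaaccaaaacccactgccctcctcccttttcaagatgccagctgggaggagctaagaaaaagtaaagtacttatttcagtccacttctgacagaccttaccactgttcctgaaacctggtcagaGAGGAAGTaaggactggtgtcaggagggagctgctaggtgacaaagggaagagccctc
Ly6g: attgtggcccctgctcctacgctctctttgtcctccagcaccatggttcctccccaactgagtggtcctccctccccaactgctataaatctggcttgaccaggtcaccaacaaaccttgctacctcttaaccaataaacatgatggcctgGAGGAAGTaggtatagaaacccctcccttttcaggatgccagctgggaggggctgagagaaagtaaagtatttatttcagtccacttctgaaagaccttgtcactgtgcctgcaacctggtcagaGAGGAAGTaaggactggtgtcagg

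The PU.1 core occurred 1 time in the Ly6c1 window and 2 times in the Ly6c2 and the Ly6g windows, while 3.20% of all 32851 promoter windows of 300 bases held it. Of the aligned bases, 89.3% were identical between Ly6c1 and Ly6c2 (158 of 177), 87.0% between Ly6c1 and Ly6g (127 of 146) and 86.0% between Ly6c2 and Ly6g (221 of 257). None of the 3 windows held the letters TTCNNNGAA of a gamma-activated site, which reads alike on both strands and is present in 8.30% of windows. The genes' near copies also bear on the counts, since reads of such relatives can be split between them, and values of Ly6c1, Ly6c2, Ly6i and Ly6a carry that uncertainty.

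The deposited pools held 13925, 11010 and 11820 cell barcodes with 74848339, 107880924 and 71510276 RNA UMIs (distinct molecules). After filters and assignment to 1 hashtag, 22157 cells remained, 10908, 9353 and 1896 by pool, so that pool 3 kept only 16.1% of its filtered cells. Between pools, 32 to 53 barcodes were shared. Cells were clustered without any Ly6 gene and without the tags, and 23 clusters were named from marker lists. The classes used here were 9779 microglia-like, 4143 macrophage-like, 3969 monocyte-like, 649 NK-like, 417 dividing, 277 dendritic-like and 77 neutrophil-like cells, and 2606 cells stayed unnamed. Although the label is CD11b+, clusters with NK, T and B cell markers and unnamed clusters led by Meg3 and Snap25 or by Ttr were present. In the microglia-like class all 10 microglia markers were found in at least 10% of cells, and in the neutrophil-like class all 14 neutrophil markers were. The automatic doublet call marked 1 cell in each of pools 1 and 3, which is a failed call, so a fixed score limit was applied as an alternative. Levels below are UMIs of a gene per 1000000 UMIs (CPM) of the summed cells of a class in a hashed sample. The classes come from RNA of the same cells, so levels between classes are a description with no test.

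Ly6c2, the gene for Ly-6C of monocytes, was highest in monocyte-like cells. Over 11 hashed samples its level there had a lowest value of 1533, a median of 2560 and a highest value of 5476 CPM. In macrophage-like cells of 11 samples the level of Ly6c2 was 319, 569 and 4155 CPM in the same order, and the groups overlapped because 3 samples were high, pool 3 hashtag 4 at 4155, pool 2 hashtag 3 at 2914 and pool 1 hashtag 5 at 2067 CPM. NK-like cells, which are known to carry Ly-6C when mature, had 117, 293 and 453 CPM over 9 samples, below every monocyte-like sample. Dividing cells and dendritic-like cells had medians of 20.4 and 19.5 CPM over 7 samples each. Microglia-like cells of 18 samples had 5.32, 10.9 and 23.9 CPM, below every NK-like sample.

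The trace in microglia is to be read against free RNA in the droplets. Per pool, the Ly6c2 level of microglia-like cells was 0.462%, 0.412% and 0.312% of the monocyte-like level in pools 1, 2 and 3. The median of the 10 monocyte markers, which microglia should lack, served as a background and stood at 0.769%, 0.780% and 0.844%, above Ly6c2. Single markers ran from 0.411% to 3.55% in pool 1, 0.272% to 1.77% in pool 2 and 0.503% to 1.66% in pool 3. Ly6c2 thus lay within their range in pools 1 and 2 and below it in pool 3. The trace is not taken to show expression, and the part of free RNA in it was not tested. The Ly-6C tag was not at such a trace level in these cells. In counts, its median per sample ran from 95 to 445.5 in microglia-like and from 111.5 to 399 in NK-like cells. As a centred log ratio, the log of a tag relative to the mean over a cell's shared tags, it was higher in NK-like than in microglia-like cells in 9 of 9 samples that held both, by 0.367 to 0.934, with no test. Every NK-like sample had a higher Ly6c2 level than any microglia-like sample. Bound and free antibody were not told apart by any control, and the part of unspecific binding was not tested.

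Ly6a encodes Sca-1, a surface protein of stem cells and activated lymphocytes that interferons induce. Its level had a lowest value of 1136, a median of 2044 and a highest of 2961 CPM in monocyte-like cells, and of 752, 1411 and 2597 CPM in macrophage-like cells. Microglia-like cells had 16.8, 213 and 767 CPM. The microglia-like and monocyte-like samples did not overlap. Dividing cells had 669, 894 and 1489 CPM, dendritic-like cells 235, 356 and 966 CPM and NK-like cells 8.99, 46.6 and 114 CPM. The sums over all T-like and B-like cells, with 79 and 31 cells, were 1588 and 1585 CPM of Ly6a.

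Ly6e, whose protein restricts the entry of several viruses into cells, was present at overlapping levels in monocyte-like, macrophage-like and microglia-like cells. Monocyte-like cells had 947, 1665 and 2654 CPM, macrophage-like cells 735, 1162 and 2257 CPM, and microglia-like cells 392, 954 and 1717 CPM. Per pool, the level in microglia-like cells was 50.7% to 64.4% of that in monocyte-like cells, far above the monocyte marker background. NK-like cells had 158, 319 and 575 CPM and dendritic-like cells 137, 173 and 247 CPM of Ly6e.

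Ly6i, a little studied relative of Ly6c2, was high in monocyte-like and macrophage-like cells. Its level was 768, 1411 and 2226 CPM in monocyte-like and 339, 634 and 1870 CPM in macrophage-like cells. In microglia-like cells it was 4.10, 12.97 and 24.2 CPM, which is 0.870% to 1.097% of the monocyte-like level per pool and close to the marker background. Dendritic-like cells had a median of 114 and NK-like cells one of 4.49 CPM.

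Ly6g and Ly6c1 were rare. Of 283 Ly6g UMIs in all cells, 275 lay in the 77 neutrophil-like cells, where 27 cells or 35.1% had at least 1 UMI (exact 95% interval 24.5% to 46.8%). A Ly6g UMI was found in 4 of 3969 monocyte-like, 2 of 4143 macrophage-like and 1 of 9779 microglia-like cells, and in 0 of 649 NK-like cells, which allows a share of cells with a UMI of up to 0.567% (exact 95% bound). Median depth over the whole class was 3897 UMIs in neutrophil-like and 4677 in microglia-like cells. Ly6c1, a gene for Ly-6C known from endothelium, was found in 1.94% of monocyte-like cells (77 of 3969), 1.96% of macrophage-like cells (81 of 4143) and 0.133% of microglia-like cells (13 of 9779). In the neutrophil-like cells it was found in 0 of 77, which allows a share of cells with a UMI of up to 4.68% by the same bound. These intervals cover counting error only and do not limit the share of cells that express a gene.

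**Figure D1:**
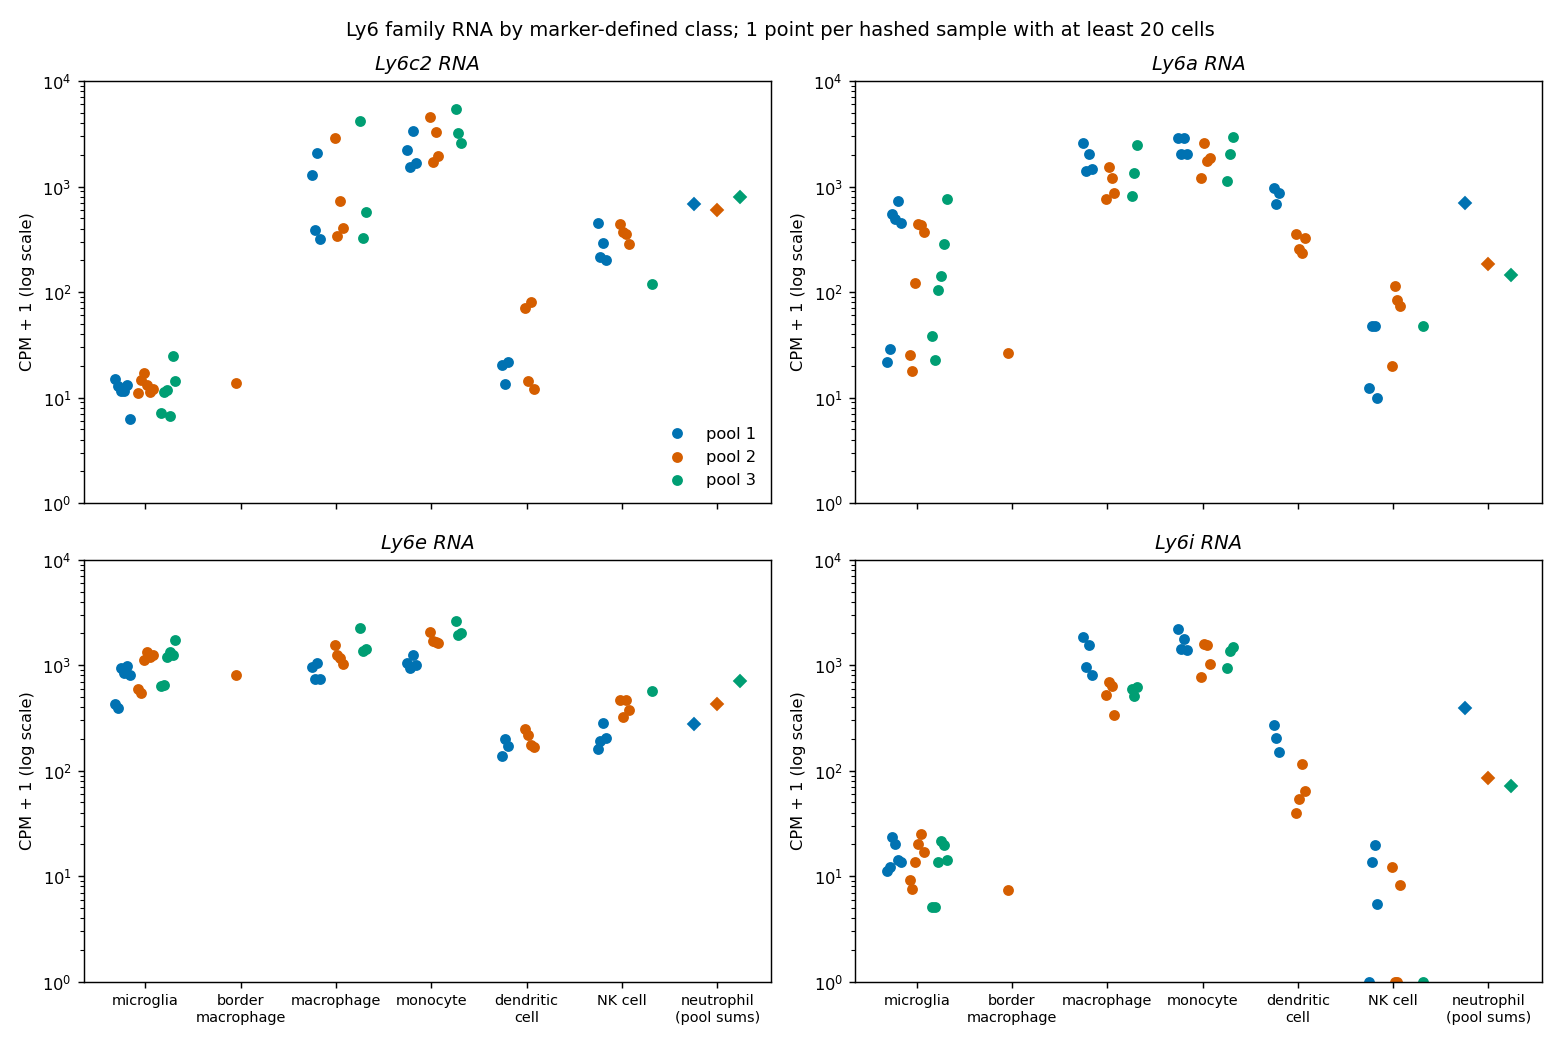
RNA level of the Ly6 genes by cell class, in CPM + 1 on a log axis, with 1 point per hashed sample of at least 20 cells, coloured by pool. Ly6c2 and Ly6i lie far lower in microglia-like cells (medians of 10.9 and 12.97 CPM) than in monocyte-like cells (2560 and 1411 CPM), while Ly6e overlaps between these classes.

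No hashed sample held more than 10 neutrophil-like cells, so their levels are sums per pool of 21, 42 and 14 cells. Ly6g stood at 521, 552 and 374 CPM in pools 1, 2 and 3. Ly6c2 stood at 679, 604 and 802 CPM, and Ly6e at 274, 428 and 713 CPM. Ly6a stood at 699, 183 and 143 CPM and Ly6i at 391, 83.7 and 71.3 CPM, so both were highest in pool 1. Without pool 1 the level over the class went from 322 to 177 CPM for Ly6a and from 168 to 81.8 CPM for Ly6i.

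Inside the classes the clusters differed. Of the monocyte-like clusters, the larger with 3324 cells had 3018 CPM of Ly6c2, 2513 of Ly6a and 1743 of Ly6i. The smaller with 645 cells, in which all 6 patrolling monocyte markers were found but which was led by Ifitm6, Cd209a, S100a4 and Ace, had 1101 CPM of Ly6c2, 354 of Ly6a and 160 of Ly6i, whereas Ly6e was at 1501 and 1245 CPM. Among macrophage-like cells, the cluster led by Gpnmb and Ctsk had 2050 CPM of Ly6c2 against 367 CPM in the cluster led by Ccl8 and Ms4a7. Among microglia-like cells, Ly6a stood at 559 CPM in a cluster led by Egr3, Tnf and C4b and at 432 CPM in one led by C4b and H2-Oa. It stood at 33.9 to 68.4 CPM in the other three clusters.

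In microglia-like cells, Ly6a, Ly6e and Ly6i varied by hashed sample. Ly6a was at 20.6, 27.5, 549, 490, 722 and 447 CPM in pool 1, hashtags 1 to 6. In pool 2 the values were 24.4, 16.8, 122, 439, 433 and 369 CPM, and in pool 3 they were 37.1, 21.5, 104, 142, 284 and 767 CPM. In every pool hashtags 1 and 2 were the lowest and did not overlap with the other four. Ly6e was at 432, 392, 931, 849, 977 and 800 CPM in pool 1, at 594, 544, 1110, 1338, 1185 and 1255 CPM in pool 2, and at 637, 645, 1202, 1330, 1256 and 1717 CPM in pool 3, again with hashtags 1 and 2 lowest and apart. Ly6i, at its low level, was also lowest there, at 10.3 and 11.2 CPM in pool 1, 6.54 and 8.22 CPM in pool 2 and 4.10 and 4.12 CPM in pool 3, where the lowest of the other four hashtags had 12.5, 12.8 and 12.8 CPM. The 2 microglia-like clusters with high Ly6a held 2.80%, 0.946%, 66.6%, 71.96%, 71.1% and 70.5% of the microglia-like cells in pool 1, hashtags 1 to 6. They held 1.44%, 0.685%, 31.4%, 69.7%, 72.8% and 68.0% in pool 2 and 2.97%, 1.90%, 28.7%, 27.3%, 66.7% and 85.3% in pool 3. Hashtags 1 and 2 were also the lowest in Ly6a within the other three clusters. There they had 19.9 and 27.5 CPM in pool 1, 24.0 and 17.0 CPM in pool 2 and 32.5 and 20.9 CPM in pool 3, against 60.5 to 224, 66.1 to 98.2 and 51.1 to 110 CPM in hashtags 3 to 6. Ly6c2 in the microglia-like cells ran from 5.32 to 23.9 CPM over the same samples.

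**Figure D2:**
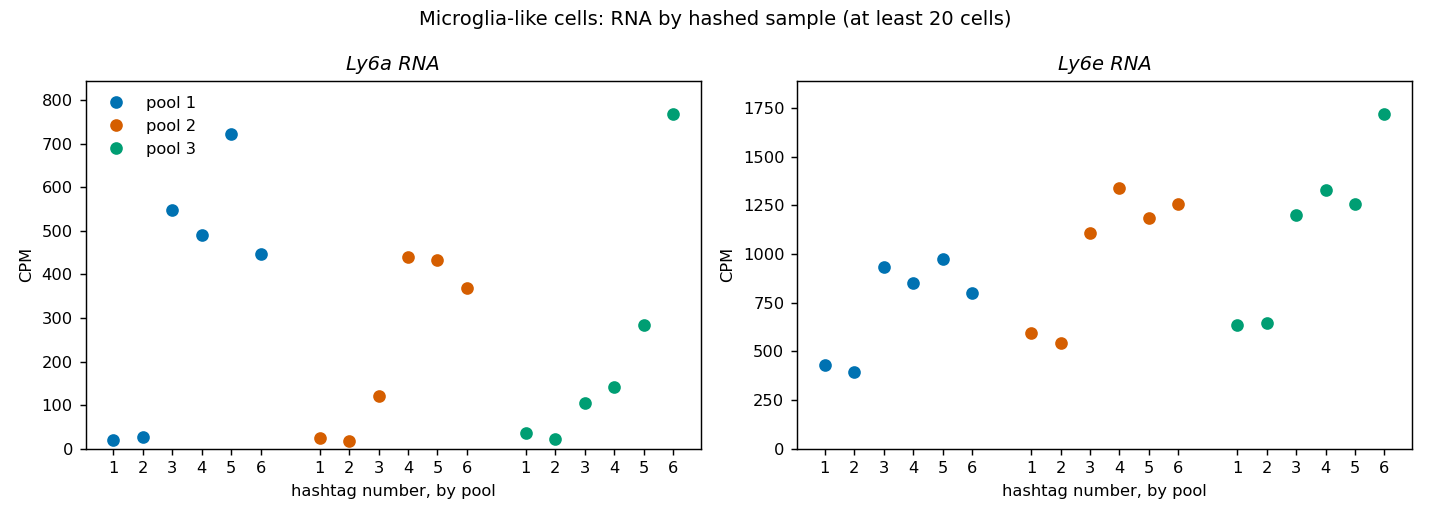
Ly6a and Ly6e RNA in CPM in microglia-like cells of each hashed sample, by pool and hashtag number, with 1 point per hashed sample. In each pool hashtags 1 and 2 lie lowest, between 16.8 and 37.1 CPM for Ly6a and between 392 and 645 CPM for Ly6e.

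In monocyte-like and macrophage-like cells Ly6c2 also varied by hashed sample, as did the other members over the ranges given above. Monocyte-like Ly6c2 was at 2236, 1533, 3339 and 1655 CPM in hashtags 3 to 6 of pool 1, at 4552, 1703, 3307 and 1963 CPM in those of pool 2, and at 5476, 3217 and 2560 CPM in hashtags 4 to 6 of pool 3. Macrophage-like Ly6c2 was at 1288, 384, 2067 and 319 CPM, at 2914, 340, 735 and 399 CPM, and at 4155, 323 and 569 CPM in the same samples. In each pool the sample highest in one class was also the highest in the other.

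Both tags separated the classes in the direction of their names. They were compared as centred log ratios: ln(count + 1) of the tag in a cell less the mean of that quantity over the 10 shared tags. The mean Ly-6C tag was higher in monocyte-like than in microglia-like cells by 1.43 ± 0.380 (SD, n = 13 hashed samples with at least 10 cells of both), and it was higher in 13 of 13 (exact sign-flip permutation test, two-sided, adjusted p = 0.00065). The Gr-1 tag was higher by 0.607 ± 0.365 in 12 of 13 samples (exact permutation test, adjusted p = 0.00065). The macrophage-like minus monocyte-like difference was -0.639 ± 0.309 (SD, n = 12) in Ly-6C, lower in 12 of 12 samples (exact permutation test, adjusted p = 0.00065). In Gr-1 it was -0.481 ± 0.331, lower in 11 of 12 (exact permutation test, adjusted p = 0.00098). For Gr-1 both calls turn on the scale: per 1000 tags of a cell, the difference from microglia was -0.16 (exact permutation test, adjusted p = 0.41) and that of macrophage-like from monocyte-like cells -0.30 (exact permutation test, adjusted p = 0.076), both as log2 differences.

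In tag counts, the median per cell of Ly-6C had a lowest value of 3911, a median of 8440 and a highest of 20573 over the monocyte-like samples, against 95, 301 and 445.5 over the microglia-like samples. Gr-1 stood at 456.5, 1434 and 2139 against 56, 75.5 and 105.5. For both tags the monocyte-like and microglia-like samples did not overlap. Neutrophil-like cells reversed the order of the tags. In pool 2 hashtag 3, the only sample with enough cells of both classes, the neutrophil-like minus monocyte-like difference was -0.71 in Ly-6C and 2.32 in Gr-1, with no test. Summed per pool, the median Gr-1 count of neutrophil-like cells was 5372, 6798.5 and 5083 in pools 1, 2 and 3, above every monocyte-like sample.

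**Figure D3:**
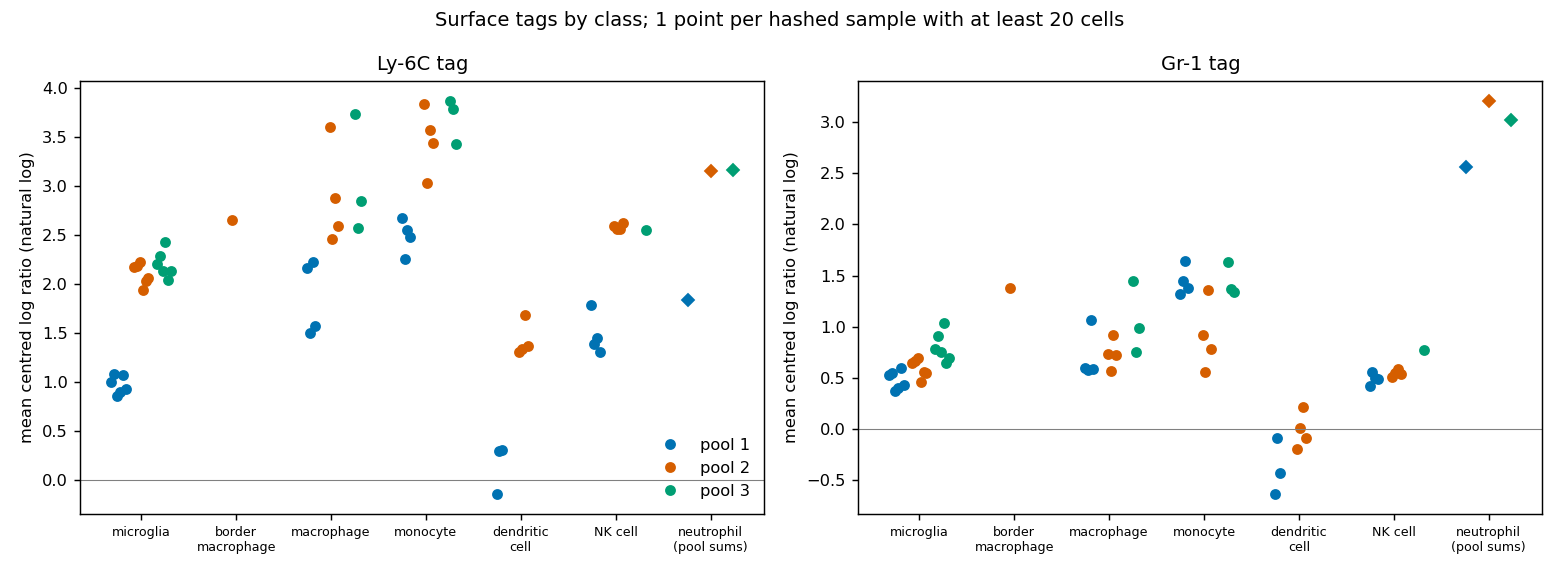
Mean centred log ratio (natural log) of the Ly-6C and Gr-1 tags by class, with 1 point per hashed sample of at least 20 cells and diamonds for pool sums of neutrophil-like cells. Ly-6C is highest in monocyte-like and Gr-1 in neutrophil-like cells, and pool 1 lies lower than the other pools in Ly-6C.

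From cell to cell the tags ran together. The rank correlation (Spearman's rho) of the Ly-6C and Gr-1 centred log ratios had a median of 0.75 over 9 monocyte-like samples (0.56 to 0.84), 0.71 over 16 microglia-like samples (0.45 to 0.83) and 0.52 over 10 macrophage-like samples (0.19 to 0.76). In neutrophil-like cells it was -0.20 to 0.36 over the 3 pools. The tags of a cell share its depth and its 10-tag mean, and raw counts gave higher medians of 0.88, 0.92, 0.80 and 0.67 in these classes. The comparisons below therefore select partly the same cells by either tag.

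To ask which RNA each tag follows, cells of a class in a hashed sample were divided by the tag. The 25% with the highest centred log ratio were summed and compared with the lowest 25% of the same sample (edgeR's quasi-likelihood test with the hashed sample as block and Benjamini-Hochberg adjustment over all genes tested). Differences are log2 of the high over the low cells ± SE.

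In monocyte-like cells, Ly6c2 RNA rose with either tag, and by about as much. Across Ly-6C, the 9 samples had Ly6c2 levels of 404, 871 and 2217 CPM (lowest, median and highest) in the low cells and of 1842, 3646 and 6393 CPM in the high cells. Across Gr-1 they had 327, 900 and 2481 CPM in the low and 2649, 3782 and 8113 CPM in the high cells. The groups overlapped for Ly-6C and not for Gr-1, and the high cells were above the low cells of their own sample in 9 of 9 for both. The difference was 2.13 ± 0.15 across Ly-6C (4.39-fold, adjusted p = 3.1e-09) and 2.17 ± 0.15 across Gr-1 (4.50-fold, adjusted p = 3.4e-09). By size of rise, Ly6c2 was number 9 of 5800 genes for Ly-6C and number 3 of 5880 for Gr-1. By pool, the log2 ratio ran from 1.20 to 2.25 in pool 1, from 1.52 to 3.13 in pool 2 and was 2.41 in the sample of pool 3 for Ly-6C, and for Gr-1 it was 2.17 to 3.34, 1.06 to 2.38 and 2.43.

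Ly6e rose little but in 9 of 9 samples for both tags. Its levels were 832, 1386 and 1913 CPM in Ly-6C-low and 1046, 1706 and 2332 CPM in Ly-6C-high cells, so the groups overlapped. The difference was 0.34 ± 0.06 across Ly-6C (adjusted p = 2.6e-04) and 0.38 ± 0.06 across Gr-1 (adjusted p = 1.1e-04). Without pool 1 the Gr-1 difference was 0.28 and its call was lost (adjusted p = 0.061).

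By centred log ratio, Ly6a and Ly6i fell across Ly-6C and did not pass the test across Gr-1. Ly6a had 1274, 2158 and 3042 CPM in Ly-6C-low and 1140, 1681 and 2959 CPM in Ly-6C-high cells, and was lower in the high cells in 7 of 9 samples (-0.33 ± 0.09, adjusted p = 0.0080). Ly6i had 1021, 1520 and 2499 CPM in the low and 544, 973 and 1578 CPM in the high cells, and was lower in 8 of 9 samples (-0.64 ± 0.14, adjusted p = 0.0017). In both cases the groups overlapped, and the samples with the deepest fall were those of pool 1, with log2 ratios of -0.75 to -0.47 for Ly6a and -1.47 to -0.68 for Ly6i. Without pool 1 the differences were -0.11 (adjusted p = 0.59) and -0.19 (adjusted p = 0.36). Across Gr-1 the values were 0.14 ± 0.05 for Ly6a (adjusted p = 0.066) and -0.19 ± 0.08 for Ly6i (adjusted p = 0.10). With cells divided by raw Ly-6C counts the direction turned, and each gene was higher in the high cells in 8 of 9 samples. The medians went from 1913 to 2128 CPM for Ly6a and from 1282 to 1644 CPM for Ly6i. These high cells were deeper in 8 of 9 samples. Across raw Gr-1 counts each gene was higher in 9 of 9.

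The smaller monocyte-like cluster, low in Ly6a and Ly6i, moved with the centred log ratio of the Ly-6C tag. It made up 10.8% to 45.3% of the Ly-6C-high and 4.38% to 24.2% of the Ly-6C-low cells, and its share was higher in the high cells in 8 of 9 samples. For Gr-1 its share was higher in 4 and lower in 4 samples. This turned on the scale. With cells divided by raw tag counts, the share was lower in the high cells in 8 of 9 samples for Ly-6C and in 9 of 9 for Gr-1. Within the larger cluster alone, a setting chosen after seeing the data, Ly6a was 0.01 (adjusted p = 0.96) and Ly6i -0.22 (adjusted p = 0.083) across Ly-6C, while Ly6c2 was 2.34 and Ly6e 0.37 and both kept their calls. The mitochondrial share was higher in Ly-6C-high cells in 8 of 9 samples by centred log ratio and lower in 9 of 9 by raw counts. Its part in the differences was not tested.

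Thus 4 of the 6 members were tested in monocyte-like cells, Ly6c1 and Ly6g being under the count filter. Across Ly-6C 2 were called higher and 2 lower, where 34.8% of all genes tested were called (17.3% higher and 17.6% lower). Across Gr-1 2 were called higher, where 20.7% of all genes were called (11.1% higher and 9.59% lower).

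**Figure D4:**
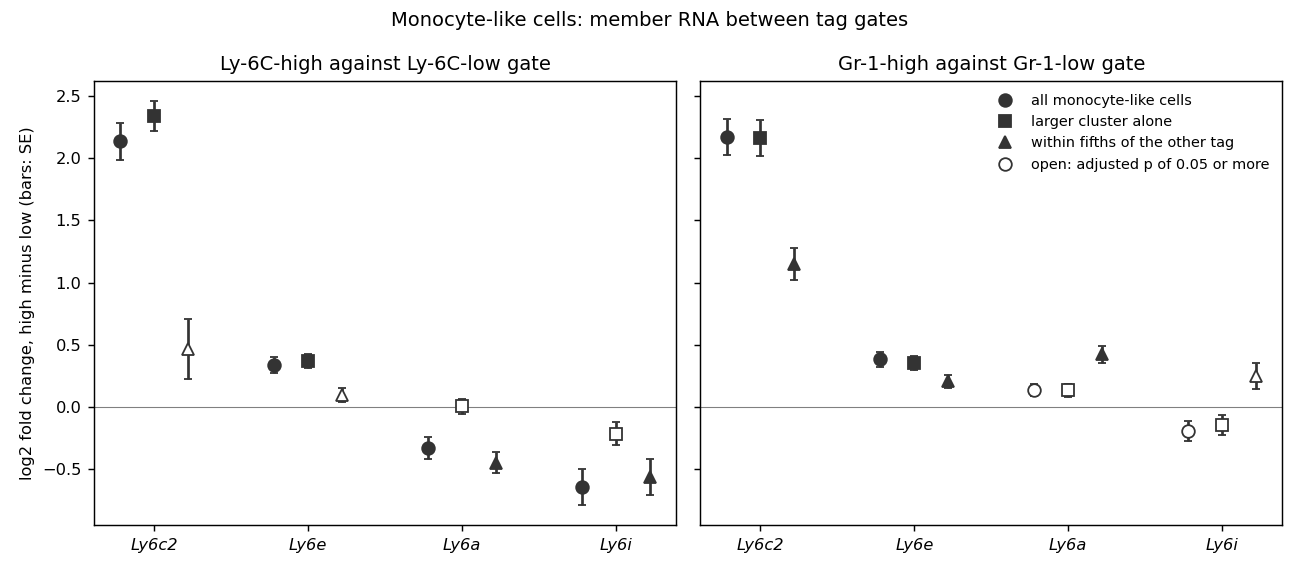
Ly6 RNA in monocyte-like cells, compared between the lowest and the highest 25% of cells by the centred log ratio of each tag. Ly6c2 is higher in the high cells in 9 of 9 hashed samples for both tags, while Ly6i is lower in 8 of 9 across Ly-6C.

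The tags share much of their order, so the high and low cells were also chosen within quintiles of the other tag. Held so, Ly6c2 differed by 0.46 across Ly-6C (adjusted p = 0.19) and by 1.15 across Gr-1 (adjusted p = 1.7e-05). Ly6a differed by -0.45 across Ly-6C (adjusted p = 6.6e-04) and by 0.42 across Gr-1 (adjusted p = 7.3e-04). Ly6i differed by -0.56 across Ly-6C (adjusted p = 0.0081) and by 0.25 across Gr-1 (adjusted p = 0.21). Ly6e differed by 0.10 (adjusted p = 0.23) and 0.21 (adjusted p = 0.037). Whether a member followed one tag more than the other was tested directly on the per-sample log2 ratios, and none of 12 tests in microglia-like and monocyte-like cells passed. The nearest was Ly6a in monocyte-like cells, whose log2 ratio across Ly-6C less that across Gr-1 was -0.47 (exact sign-flip permutation test, two-sided, p = 0.012, adjusted p = 0.14). For Ly6c2 the ratios differed by -0.05, with single samples from -1.09 to 2.07 (exact permutation test, adjusted p = 1).

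Over the quintiles of the cells by tag, the median of Ly6c2 rose from each quintile to the next. Its median level over 9 samples was 712, 1460, 2178, 3348 and 3964 CPM from the lowest to the highest quintile of Ly-6C, and 844, 1487, 2216, 2615 and 4134 CPM for Gr-1. It rose at every step in 5 of 9 samples for Ly-6C and in 7 of 9 for Gr-1. In hashtags 3, 4 and 6 of pool 1 it was lower in the top than in the fourth quintile of Ly-6C, at 2522 after 3348, 1736 after 2513 and 2035 after 2618 CPM. Ly6a and Ly6i had their highest Ly-6C medians in the middle quintile, at 2716 and 1725 CPM, and their lowest in the top quintile, at 1782 and 805 CPM.

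In macrophage-like cells the Ly6c2 median was also higher in the top than in the bottom quintile of both tags. Over 10 samples the median Ly6c2 level was 82.2, 162, 275, 681 and 1350 CPM through the quintiles of Ly-6C, rising at every step in 9 of 10. Through the quintiles of Gr-1 it was 396, 440, 435, 471 and 1029 CPM, rising at every step in 5 of 10. In 3 of the 10 samples it was lower in the top than in the bottom quintile of Gr-1, at 294 against 379 CPM in pool 2 hashtag 4, 258 against 551 CPM in pool 2 hashtag 6 and 277 against 379 CPM in pool 3 hashtag 5. Ly6i went from 523 to 1138 CPM from the lowest to the highest quintile of Ly-6C, and Ly6a stayed between 1331 and 1557 CPM. These steps carry no test.

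**Figure D5:**
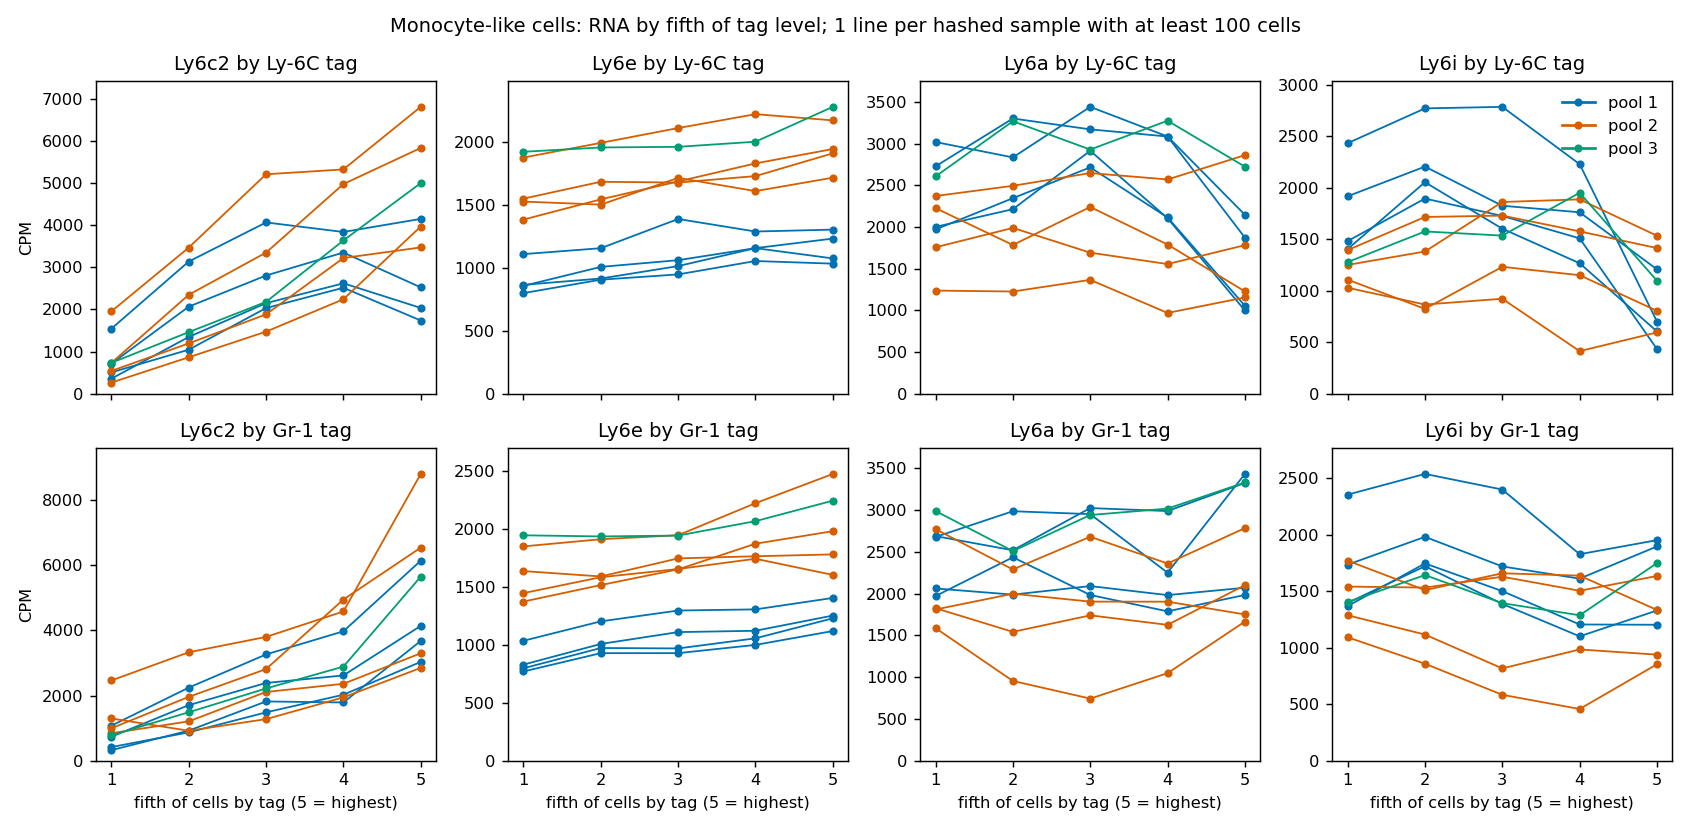
Ly6 RNA in CPM in monocyte-like cells by quintile of each tag, from the lowest to the highest quintile, with lines for the 9 hashed samples. The Ly6c2 median over these samples rises from 712 to 3964 CPM for Ly-6C and from 844 to 4134 CPM for Gr-1.

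Among the other genes that moved with Ly6c2 in monocyte-like cells, Chil3, a chitinase-like secreted protein, rose by 3.58 across Ly-6C and 2.97 across Gr-1. Vcan, which encodes the matrix proteoglycan versican, rose by 3.02 and 2.04. H2-Eb1 and H2-Ab1, chains of MHC class II, fell by 2.31 and 2.09 across Ly-6C, and the complement gene C1qa fell by 2.197. The 10-tag mean of the centred log ratio includes the MHCII and CD74 tags. At equal Ly-6C counts, a cell with more of these tags therefore ranks lower, and its part in the class II falls was not tested. Across Gr-1, Pdcd1lg2, the ligand PD-L2, fell by 1.86, and Nos2, the inducible nitric oxide synthase, fell by 1.51. Each of these genes passed the edgeR test in the same direction in 9 of 9 samples. Of the 22 type I interferon response genes tested, 20 were called higher and 0 lower for each tag, with a median difference of 0.65 across Ly-6C and 0.50 across Gr-1 against -0.03 and -0.01 over all genes. Of 14 interferon gamma response genes tested, 7 were higher and 1 lower across Ly-6C and 3 higher and 1 lower across Gr-1. All 10 monocyte markers were called higher across Ly-6C and 8 of 10 across Gr-1, and their summed level was higher in 9 of 9 samples for both. Of the 33 other Ly6 and uPAR family genes only Plaur, the urokinase receptor, had enough counts, and it differed by 0.32 across Ly-6C (adjusted p = 0.0044) and 0.18 across Gr-1 (adjusted p = 0.10).

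In microglia-like cells no member passed the test across either tag by centred log ratio. Across Ly-6C the median tag count was 221 in the low and 481.5 in the high cells, as medians over 16 samples, while Ly6c2 stood at 11.5 and 11.9 CPM. Across Gr-1 the tag went from 59.5 to 117.5 counts and Ly6c2 was at 9.84 and 10.7 CPM. Ly6a differed by -0.0028 ± 0.087 across Ly-6C (adjusted p = 0.999) and 0.13 ± 0.07 across Gr-1 (adjusted p = 0.37). Ly6e differed by -0.05 ± 0.06 (adjusted p = 0.74) and -0.01 ± 0.05 (adjusted p = 0.98), and Ly6i by 0.51 ± 0.19 (adjusted p = 0.18) and 0.49 ± 0.18 (adjusted p = 0.12). Ly6c2 was under the count filter, and without the filter it differed by 0.21 (adjusted p = 0.90) and -0.01 (adjusted p = 1). So 0 of 3 members tested were called, at an unadjusted p under 0.05 only Ly6i was, while of all genes tested 3.32% were called across Ly-6C (2.68% higher and 0.636% lower) and 5.14% across Gr-1 (4.06% higher and 1.07% lower). This turned on the scale for Ly6a: with cells divided by raw tag counts it rose by 0.86 ± 0.12 across Ly-6C (adjusted p = 9.5e-07) and by 0.99 ± 0.13 across Gr-1 (adjusted p = 3.0e-07), higher in 11 of 16 samples for each, and the high cells were then deeper in 16 of 16.

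Other genes moved with the tags in microglia-like cells. Apoe, a lipid carrier, rose by 0.95, Ddit3, a stress response factor, by 0.55 and the immediate early gene Ier2 by 0.38 across Ly-6C, in 16 of 16 samples each. Across Gr-1, Cstb, a protease inhibitor, rose by 0.67, and Cd83, an activation marker, by 0.44. Plaur, of the uPAR branch of the family, rose by 0.87 ± 0.13 (adjusted p = 2.6e-05) across Ly-6C and 0.91 ± 0.11 (adjusted p = 2.2e-07) across Gr-1. Of 21 type I interferon response genes tested, 9 were called higher and 0 lower across Gr-1 (median difference 0.27, against -0.00068 over all genes), and 1 higher and 0 lower across Ly-6C (0.063 against -0.0013). Of the macrophage markers 3 of 5 tested were higher for each tag, and their summed level was higher in the high cells in 14 of 16 samples. Of the 10 microglia markers 2 were lower across Ly-6C and 6 across Gr-1. The part of macrophage RNA in these differences was not tested.

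The difference between the classes was tested as an interaction on the 8 samples, all of pools 1 and 2, that held every sum. Ly6c2 passed the count filter only through monocyte-like cells, so no such difference is given for it. The Ly6e difference was larger in monocyte-like than in microglia-like cells by 0.57 across Ly-6C (adjusted p = 1.2e-04) and 0.56 across Gr-1 (adjusted p = 1.7e-04). For Ly6i, which is close to the background in microglia-like cells, the monocyte-like minus microglia-like value was -1.31 (adjusted p = 0.0040) and -0.88 (adjusted p = 0.0062). For Ly6a it was -0.26 (adjusted p = 0.22) and 0.05 (adjusted p = 0.82). So 2 of these 3 members differed for each tag, 1 upward and 1 downward, where 18.9% of all genes tested did for Ly-6C (9.64% upward and 9.23% downward) and 11.4% for Gr-1 (5.34% upward and 6.04% downward). Without pool 1, Ly6e was at 0.38 (adjusted p = 0.16) and 0.31 (adjusted p = 0.38) and Ly6i at -0.50 (adjusted p = 0.43) and -0.71 (adjusted p = 0.18), which ends those calls.

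Neutrophil-like cells were divided into the upper and the lower 50% within each pool, giving 10, 21 and 7 cells on each side. Here the pool was the block, so the sides can differ in their mix of hashtags. Ly6g RNA was at 332, 319 and 464 CPM in Gr-1-low and at 829.2, 920 and 298 CPM in Gr-1-high cells of pools 1, 2 and 3, higher in 2 of 3 pools, with ranges that overlapped (1.22 ± 0.43, adjusted p = 0.067). Across Ly-6C, Ly6g was at 341, 273 and 359 CPM in the low and 632, 872 and 384 CPM in the high cells, higher in 3 of 3, with ranges that did not overlap (1.39 ± 0.51, adjusted p = 0.43). Ly6c2 was at 683, 464 and 359 CPM in Ly-6C-low and 645, 766 and 1094 CPM in Ly-6C-high cells (1.08 ± 0.44, adjusted p = 0.43), so pool 1 was slightly lower and the others higher. Across Gr-1, Ly6c2 was at 825, 653 and 1352 CPM in the low and 476, 528 and 331 CPM in the high cells, higher in none (-0.66 ± 0.38, adjusted p = 0.25). The fitted differences use the TMM scaling of edgeR and not plain CPM. On that scale Ly6c2 was higher across Ly-6C in 3 of 3 pools, and across Gr-1 higher in 1 and lower in 2. None of these differences passed the test.

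Ly6a was the one member called, and it was lower where the centred log ratio of Gr-1 was high. It was at 1146, 288 and 270 CPM in Gr-1-low and at 35.3, 16.0 and 33.1 CPM in Gr-1-high cells of pools 1, 2 and 3, and the groups did not overlap. Only 17 of the 77 cells held a Ly6a UMI. Hashtags also differed in both measures. In pool 2, which had the most cells, hashtags 1 to 6 had 0, 25.2, 245, 0, 234 and 325 CPM of Ly6a. Their mean Gr-1 ratios were 3.75, 3.49, 3.24, 3.14, 2.41 and 3.28. The fitted difference was -4.01 ± 0.55 (adjusted p = 9.1e-04), resting on 100, 57 and 7 UMIs against 2, 2 and 1. Without pool 1 it was -3.56 and edgeR called 0 genes, with 206 at an unadjusted p under 0.05 (DESeq2 was run on all pools and called 87). With cells divided by raw Gr-1 counts the direction turned in 3 of 3 pools, from 270 to 1498, 120 to 287 and 80.2 to 192 CPM (fitted difference 1.496), and edgeR called 0 genes, with 92 at an unadjusted p under 0.05. So 1 of 4 members tested was called across Gr-1, where 18.2% of genes were (4.88% higher and 13.3% lower), and 0 of 5 across Ly-6C, where 0 of 845 genes were called, 93 were at an unadjusted p under 0.05 and DESeq2 called 1. Ly6e was also lower across Gr-1 in 3 of 3 pools by centred log ratio (-1.05 ± 0.37, adjusted p = 0.067). By raw Gr-1 counts it was higher in 3 of 3, with medians of 319 CPM in the low and 607 CPM in the high cells.

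With Ly6a fell Ccl9, a chemokine, by 4.77, and the MHC class II genes H2-Eb1, H2-Aa and Cd74 by 4.08, 3.99 and 3.75. The mean subtracted in the centred log ratio includes the MHCII and CD74 tags. At equal Gr-1 counts, a cell with more of these tags therefore ranks lower. The scale can thus place cells rich in class II among the Gr-1-low cells, and its part in these falls was not tested. Retnlg, Mmp8, Fpr1, S100a6 and Mmp9 rose by 4.35, 3.41, 2.81, 2.34 and 2.196, and of these Mmp8 and Mmp9 are proteases of neutrophil granules and Fpr1 is a receptor for bacterial peptides. The summed level of the 14 neutrophil markers was higher in Gr-1-high cells in 3 of 3 pools, at 486557, 426950 and 229726 CPM against 247348, 232484 and 221012 CPM. Macrophage markers were at 2681, 3542 and 1313 CPM in Gr-1-low and 1041, 1288 and 2647 CPM in Gr-1-high cells, and 2.60% of neutrophil-like cells were over the doublet score limit. The parts of other cells' RNA and of the hashtag mix in the fall of Ly6a were not tested.

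By mean centred log ratio, the Gr-1 tag was higher in neutrophil-like cells with a Ly6g UMI than in those without in 3 of 3 pools, at 3.18 against 2.18, 3.37 against 3.11 and 3.69 against 2.83. In counts it was lower in pools 1 and 2 and higher in pool 3, with no test for either scale. The median Gr-1 count was 3948 in the 8 cells with and 7127 in the 13 cells without Ly6g in pool 1, 5727.5 in 16 and 7569.5 in 26 cells in pool 2, and 8719 in 3 and 4932 in 11 cells in pool 3. The cells without Ly6g were shallower, with medians of 2560 to 3172 RNA UMIs against 8827 to 11826, so a missing Ly6g UMI does not show that the gene was silent.

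Ly6c1 UMIs were concentrated in few cells. Of 432 Ly6c1 UMIs, 203 came from 10 cells with at least 5 each, a limit chosen after seeing the values. Of these, 5 cells belonged to an unnamed cluster of 607 cells led by Cst7, Mt2 and Cdkn2a and held 21 to 68 Ly6c1 UMIs each, 173 in all, in pools 2 and 3. They had 0 to 22 UMIs of Ly6c2 and 40 to 259 of Ly6a, and their Ly-6C tag counts were 10364 to 23914. These 5 cells were deep, with 25070 to 65068 RNA UMIs against a cluster median of 3415. Ptprc, the gene for CD45 of blood cells, was at 0 in 3 of these 5, and Sox2, a factor of neural progenitors, was found in 3. The other 5 cells were monocyte-like, of pool 1, with 5 to 7 Ly6c1 UMIs beside 15 to 47 of Ly6c2 and 5104 to 14710 Ly-6C tag counts. They held 3190 to 7042 RNA UMIs, so the counts are not at equal depth.

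For each member the genes with the most similar pattern were taken over 18 sums of class and pool (7 classes, at least 50 cells each, 5638 genes), by Pearson's r of log2 levels, as a description. Ly6c2 ran with Rgcc (r = 0.944), Vegfa (0.938), Scimp (0.936), Cd44 (0.933) and Prdm1 (0.930). Ly6a ran with Gapdh (0.948), Il18bp (0.941), Snx10 (0.937), Slc16a3 (0.934) and Cxcl9 (0.931). Ly6i ran with Msrb1 (0.974), Ms4a4c (0.972), Inhba (0.965), Gda (0.958) and Slfn1 (0.954), and Ly6e with Sh3bp2 (0.966), Rnpep (0.954), Rab1a (0.944), Hk3 (0.933) and BC028528 (0.930). Among the members, Ly6a and Ly6i were most alike (0.863), and Ly6c2 was nearer to Ly6i (0.737) than to Ly6a (0.482) or Ly6e (0.350). The sums share classes and libraries, and neutrophil-like cells were too few to enter, so no partner is given for Ly6g or Ly6c1.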

How the data were processed

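RNA and antibody tags of single cells were analysed as the UMI counts per gene or tag and cell barcode that the authors deposited, with no normalization, from 3 pools with 2 libraries each. Per the submitters' processing notes, the tools were bcl2fastq 2.20.0.422, Seurat 3 and Cell Ranger (3.0.1, 4.0.0), with build mm10. The 6 genes, the lists and the rules were chosen with earlier results of these data known, and the naming rule of clusters was written after their markers were seen.

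Cells with at least 200 genes, 500 UMIs and under 10% mitochondrial UMIs were kept if 1 hashtag held at least 80% of hashtag counts. Clusters came from 2000 variable genes without any Ly6 gene, 30 principal components, 15 neighbours and Leiden at resolution 1 (scanpy 1.11.5, leidenalg 0.10.2). A name needed 70% of a list in at least 10% of cells or 3 markers among the top 10 genes, at least 3 detected, and no other list with more. Clusters with over 50% of cells above a Scrublet score of 0.2, or of low depth, stayed unnamed.

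Cells divided by a tag needed 20 cells on each side (5 in neutrophil-like cells, which were summed per pool, as too few hashed samples had 10). Sums were tested with edgeR 4.0.16 in R 4.3.3 (quasi-likelihood, TMM, filterByExpr, adjusted p threshold 0.05), and tags by exact sign-flip permutation. Except in neutrophil-like cells, both sides of each comparison come from the same hashed sample, so the hashed sample was the replicate block. In neutrophil-like cells both sides come from the same pool, and the pool was the block. Named genes were the 5 largest rises and falls that passed and moved alike in every sample, the members, and for each member the 5 most similar genes with mean CPM of at least 20 (log2 of CPM + 10). One gene named by this rule is not reported here. In simulated Ly-6C data of monocyte-like cells with 5800 genes, 22 of 67 genes changed 1.5-fold, 66 of 67 changed 2-fold and 66 of 66 changed 4-fold were recovered. For Gr-1 in neutrophil-like cells with 841 genes, 2 of 67, 26 of 67 and 56 of 66 were. Alternatives were other scalings and filters, DESeq2 1.42.0, raw tag counts, HTODemux hashtags, a doublet score limit, sums per pool, no block, and each pool left out.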

Additional observations from a re-analysis of the deposited data

Results flagged for a closer look

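By the edgeR interaction test on 8 hashed samples of pools 1 and 2, the differences of Ly6e and Ly6i across the tags were not the same in monocyte-like and microglia-like cells. Across Ly-6C the monocyte-like minus microglia-like difference was 0.57 ± 0.10 for Ly6e and -1.31 ± 0.32 for Ly6i, and across Gr-1 it was 0.56 ± 0.10 for Ly6e and -0.88 ± 0.22 for Ly6i. Without pool 1 none of these calls held, at 0.38 and 0.31 for Ly6e and -0.50 and -0.71 for Ly6i (edgeR adjusted p from 0.16 to 0.43).

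In data outside the comparisons, Ly6c1 stood at 60.7 CPM (183 UMIs) in the unnamed cluster led by Cst7, Mt2 and Cdkn2a, against 3.58 CPM in monocyte-like cells. By pool it was 4.37, 62.9 and 350 CPM there, and 5 cells held 173 of the UMIs.

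In 8 groups of 4 to 10 samples, no sample stood apart from its group in a member's level or a tag by Dixon's test.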

How the results depend on the processing

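The counts of genes called moved more than the members did. Without the replicate block, Ly-6C gave 0 genes in microglia-like and 1178 in monocyte-like cells (240 and 2021 with it; the 0 has 286 at an unadjusted p under 0.05), and Gr-1 gave 0 in microglia-like, 330 in monocyte-like and 69 in neutrophil-like cells (373, 1218 and 153 with it; the 0 has 331). Leaving out 1 pool gave for Ly-6C 27 to 273 genes in microglia-like, 777 to 1946 in monocyte-like and 0 to 45 in neutrophil-like cells, and for Gr-1 88 to 319, 206 to 1188 and 0 to 212. The genes differing between the classes then numbered 251 to 1486 for Ly-6C (1486 with all pools) and 83 to 893 for Gr-1 (893 with all pools). The lowest counts were without pool 2 in microglia-like cells, and without pool 1 in monocyte-like cells, between classes and for Gr-1 in neutrophil-like cells. Raw tag counts gave 1875 and 593 genes for Ly-6C in microglia-like and monocyte-like cells, and for Gr-1 1995, 619 and 0 in microglia-like, monocyte-like and neutrophil-like cells and 1463 between classes (the 0 has 92 at an unadjusted p under 0.05). DESeq2 gave 1 gene for Ly-6C in neutrophil-like cells and, for Gr-1, 729 in monocyte-like and 87 in neutrophil-like cells. Within quintiles of the other tag, 61 and 1139 genes were called for Ly-6C in microglia-like and monocyte-like cells and 173 for Gr-1 in monocyte-like cells. Sums per pool gave 715 for Gr-1 in monocyte-like cells, no count filter gave 30 for Ly-6C in neutrophil-like cells, and HTODemux gave 0 for Gr-1 in neutrophil-like cells, with 122 at an unadjusted p under 0.05. With library sizes as the only scaling, genes higher and lower between classes numbered 465 and 1147 for Ly-6C (759 and 727 with TMM) and 278 and 637 for Gr-1 (419 and 474 with TMM).

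Ly6c2 in monocyte-like cells was called under every alternative for Gr-1 and under all but quintiles of the other tag for Ly-6C (0.46). Without the replicate block its difference was 2.02 across Ly-6C and 2.08 across Gr-1, while Ly6e (both tags) and Ly6a (Ly-6C) lost their calls. With raw tag counts the sign turned for Ly6a (0.86) and Ly6e (0.14) across Ly-6C in microglia-like cells, Ly6a (0.39) and Ly6i (0.36) across Ly-6C in monocyte-like cells, Ly6e across Gr-1 in microglia-like (0.20), Ly6i across Gr-1 in monocyte-like (0.34) and Ly6a across Gr-1 in neutrophil-like cells (1.496), and Ly6a between classes across Gr-1 (-0.66). High raw counts go with deeper cells: median UMIs were higher in 16 of 16 microglia-like samples. In the larger monocyte cluster alone, chosen after seeing the data, Ly6a across Ly-6C turned to 0.0054. Per 1000 tags, the Gr-1 tag of monocyte-like minus microglia-like cells turned to -0.16, and macrophage-like minus monocyte-like cells was -0.30, past no threshold. The cause of these changes was not tested. Of 281 values of 27 member results, 239 kept their side of the threshold, 18 lost a call and 15 gained one. Another 9 turned in sign with a call before or after. Turns in sign between values that both missed the threshold are counted among the 239 and are not all listed here. Quintiles of the other tag were not run in neutrophil-like cells. Depth limits Ly6g, Ly6c1 and everything in the 77 neutrophil-like cells.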

Other observations

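Outside the named classes, Ly6a was also high in an unnamed cluster of 605 cells led by Ccl17, Plet1 and Ifitm1. It stood there at 2679 CPM, beside 490 CPM of Ly6c2 and a median of 1327 Ly-6C tag counts. Ly6d, another gene of the family and known from B cell development, stood at 2204 CPM in the 31 B-like cells (545 UMIs) and at 3.61 CPM or less in every other cluster. Both were chosen after their values were seen.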
